A study of Mus musculus with 6 samples.

Results

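Aminoacyl-tRNA synthetases are the enzymes that join each amino acid to its transfer RNA (tRNA). The genes described here are the 36 synthetase genes of the deposited count table that were named on a fixed list of symbols, out of 23481 genes in the table. They fall into 20 enzymes that work in the cytosol and 16 that work in mitochondria, whose symbols end in 2. All 36 passed the filter on low counts. The cells were 4T1, a mouse mammary carcinoma line (named 4T1_T in the title of the count table, which the labels do not explain), grown in DMEM with non-essential amino acids, a supplement that contains asparagine. Each culture was infected to express 1 of 3 short hairpin RNAs. Those called shAsns-1 and shAsns-2 target Asns, and shRenilla is the control, aimed at a luciferase that mice lack. RNA libraries were sequenced, and the labels list 2 libraries, A and B, for each of the 3 hairpins. The labels leave unsaid if A and B were grown or infected separately, so p-values measure only the spread between these libraries.

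Each synthetase recognises 1 amino acid and its tRNAs and uses ATP to join them, and the charged tRNA is then carried to the ribosome by an elongation factor. Mitochondria translate their own small genome with a separate set of tRNAs, most of which are charged by nuclear-encoded enzymes of their own, although Gars (glycine) and Kars (lysine) serve both compartments from 1 gene. Asparagine synthetase, the product of Asns, makes asparagine from aspartate and glutamine, and Nars in the cytosol and Nars2 in mitochondria load that amino acid onto tRNA. When amino acids run short, uncharged tRNA activates the kinase GCN2, translation of the transcription factor ATF4 increases, and many cytosolic synthetase genes are among the genes that ATF4 is known to induce. ATF4 acts through composite C/EBP-ATF sites.

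Promoter sequences are shown first because such sites are where ATF4 could act on these genes. RefSeq promoters (GRCm38.p6), each reaching from 250 bases before to 50 bases after a gene's start, were given for 26 of the 36 genes. They were searched on both strands for the letters TGATGNAAT, where N is any base, which read ATTNCATCA on the other strand. The letters were found in 3 of the 12 cytosolic promoters and 0 of the 14 mitochondrial ones, and in 317 of all 32851 promoters in the table (0.965%). The matches in Gars and Iars, the isoleucine enzyme, are printed 5′ to 3′ on the gene's plus strand, with the matching bases in capitals. In Gars the match began 31 bases before the start, and in Iars 6 bases after it.
Gars (chr6:55037960-55037988): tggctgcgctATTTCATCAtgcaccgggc
Iars (chr13:49682126-49682154): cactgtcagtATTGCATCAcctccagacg
The 250 bases before the start that RefSeq gives for Nars2, the mitochondrial asparagine enzyme, hold no match. GENCODE, used for gene positions below, places the start at 96951505, so the stretch runs into the gene as GENCODE gives it. They are printed to set a promoter without the letters beside the matches.
Nars2 upstream (chr7:96951277-96951526, plus strand): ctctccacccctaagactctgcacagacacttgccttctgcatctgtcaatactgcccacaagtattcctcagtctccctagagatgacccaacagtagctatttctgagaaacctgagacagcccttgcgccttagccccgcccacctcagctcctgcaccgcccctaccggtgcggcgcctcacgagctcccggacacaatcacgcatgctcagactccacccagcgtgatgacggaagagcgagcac
The Nars2 stretch had a GC content of 58.4%. A match of letters is a description and not a measured binding site. Sites that differ from these letters, for example at the last base, were not searched for, so a promoter without a match may still hold one.

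All genes were listed at 0 in shAsns-1 B, which leaves 5 libraries, with 10244753 to 15955168 gene reads each. The library labelled shAsns-1 thus has no replicate, and its SEs, p-values and fold intervals assume the spread seen within shAsns-2 and shRenilla. Levels are given as CPM (a gene's reads scaled to a common total of gene reads in each library), and 3 reads correspond to 0.188 to 0.293 CPM. Where values of a hairpin are given as a pair, library A comes first. Asns, the targeted gene, had 58.7 and 56.9 CPM in shRenilla, 45.7 and 44.2 CPM in shAsns-2 and 110 CPM in the library labelled shAsns-1. It was higher in the library labelled shAsns-1 than in shRenilla (log2 fold change 0.92, SE 0.101, edgeR adjusted p = 6.27e-05), against that library's label. In shAsns-2 its log2 fold change was -0.34 (SE 0.0882, edgeR adjusted p = 0.216). The library labelled shAsns-1 also held more olfactory receptor reads, 41.5 CPM against 7.99 to 11.9 in the others. It had reads at 17672 genes against 15052 to 15392 in the others, although it had the fewest gene reads. Of its reads 23.2% were unaligned, against 17.9 to 20.1%. Its summed epithelial markers (Krt8, Krt18, Krt7, Epcam and Cdh1, all detected) were lower, at 909 CPM against 1080 to 1127. The 4 leukocyte markers summed to 0.781 CPM there and to 0.0720 to 0.251 in the others, and Lyz2 was at 0 reads in all 5 libraries. Basal markers (Krt5 and Krt14) summed to 3.03 CPM there against 11.8 to 13.2, although 1 of the 2 had 0 reads in each other library and neither did there. Fibroblast markers (Col1a1, Pdgfra and Dcn) summed to 38.8 CPM there against 28.9 to 29.8, with 1 at 0 reads in both shAsns-2 libraries and in shRenilla A. Endothelial markers (Pecam1 and Cdh5) summed to 0.195 to 0.668 CPM in all libraries, and Adipoq to 0.195 in that library and 0 in the others. The part of these differences in the results below was not tested, and in whole cultures fewer cells of a kind and less RNA per cell cannot be told apart.

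Cytosolic synthetase transcripts were more abundant than mitochondrial ones in the control cells. Divided by exon length (RPKM, the CPM per kilobase of exon), the median over the 20 cytosolic enzymes in shRenilla was 28.1 RPKM. For the 16 mitochondrial enzymes it was 3.03. By the longest transcript these medians were 36.3 and 5.48 RPKM. Nars was the highest cytosolic enzyme at 88.0 ± 6.38 RPKM (SD, n = 2), followed by Gars at 79.1 ± 12.8, Rars, the arginine enzyme, at 73.9 ± 3.94, and Farsb, the beta subunit of the phenylalanine enzyme, at 61.8 ± 0.858. Nars, Gars and Rars overlapped with their neighbours in that order, since the 2 control values were 92.6 and 83.5 for Nars, 70.1 and 88.2 for Gars, and 76.7 and 71.1 for Rars. Cars, the cysteine enzyme, was the lowest at 7.84 ± 0.249 RPKM. Of the 19 pairs of neighbours in the cytosolic order, 11 were separate in both control libraries and 8 overlapped.

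Among mitochondrial enzymes, Lars2, the leucine enzyme, was listed far above the rest, at 93.5 ± 18.4 RPKM in shRenilla (SD, n = 2). Yars2 (tyrosine) followed at 16.7 ± 1.39 and Iars2 (isoleucine) at 10.4 ± 0.433. Nars2 stood at 4.93 ± 0.163 RPKM, and the lowest were Fars2 (phenylalanine), Aars2 (alanine) and Ears2 (glutamate) at 0.918 ± 0.234, 0.871 ± 0.0891 and 0.662 ± 0.197. In this order 11 of 15 neighbouring pairs were separate. In 16 pairings of a cytosolic with a mitochondrial enzyme for the same amino acid, the cytosolic transcript was the higher per length in 14. The exceptions were Lars over Lars2, with a ratio of 0.284 ± 0.0558, and Yars over Yars2, with a ratio of 0.847 ± 0.0937 (SD, n = 2 each). The second exception depends on the length used: by the longest transcript in place of all exons, Yars exceeded Yars2 by 1.54 ± 0.171 times and 15 of 16 pairings had the higher cytosolic level. The largest excess was that of Eprs, the fused glutamate and proline enzyme, over Ears2, at 45.5 ± 14.9 (139 ± 45.6 by the longest transcript). Nars exceeded Nars2 by 17.9 ± 1.89 times (15.4 ± 1.62 by the longest transcript).

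**Figure D1:**
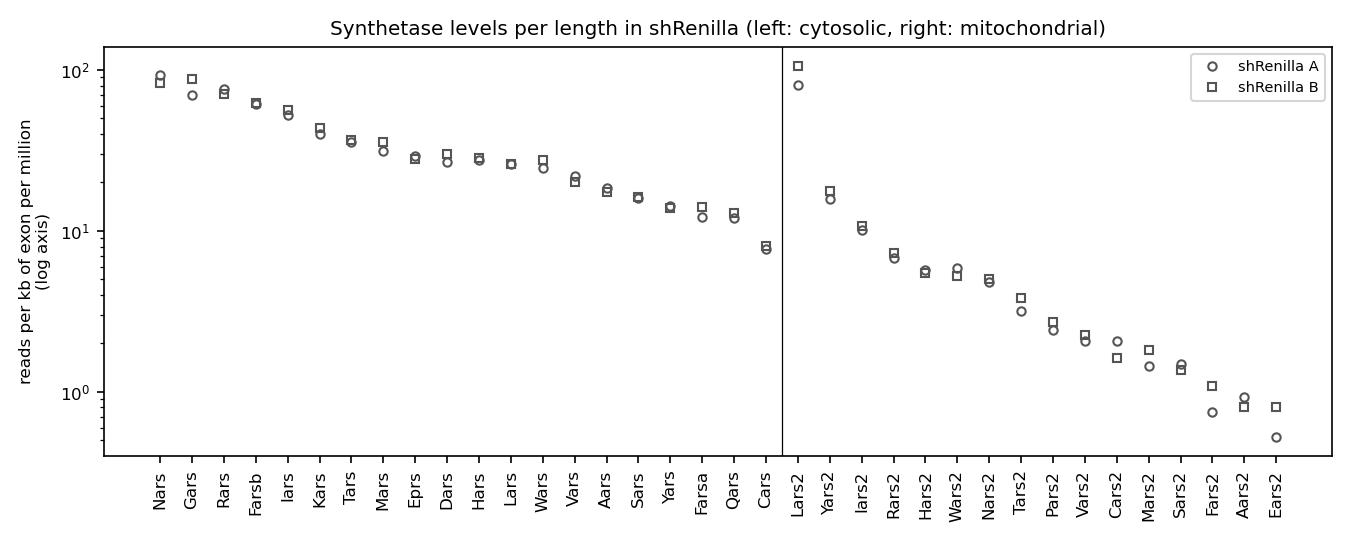
Level of each synthetase transcript in the 2 shRenilla libraries, in RPKM on a log axis, ordered by the mean within the cytosolic (left) and mitochondrial (right) enzymes. Nars leads the cytosolic enzymes at 88.0, and Lars2 at 93.5 stands apart from the other mitochondrial enzymes, which reach 16.7 at most.

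In shAsns-2, the cytosolic synthetases lay slightly below shRenilla and none of them passed the test. Of 20, 0 rose, 0 fell and 20 were not called at an adjusted p under 0.05 in edgeR's quasi-likelihood test, where 0.0642% of all genes tested were called. DESeq2 and limma-voom called 0 as well. At an unadjusted p under 0.05, edgeR gave 1 lower and 0 higher (4.05% and 5.59% of all genes). The median log2 fold change was -0.08, against -0.00 over all 12457 genes tested, and single values ran from -0.21 to 0.03, with 17 of 20 negative (50.3% of all genes). Both shAsns-2 libraries lay below both shRenilla libraries at 14 of the 20 genes and above them at 0, where 25.8% and 16.6% of all genes did so. With TMM-scaled CPM, which corrects for the RNA composition of a library, these numbers were 13 and 0, against 20.7% and 20.6%. From library B to library A the class median moved by -0.03 in shAsns-2 and by -0.03 in shRenilla.

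Summed over the 20 enzymes, cytosolic synthetase reads took 3178 and 3227 CPM in shAsns-2 and 3389 and 3444 CPM in shRenilla. The shAsns-2 totals were below both control totals. The lowest log2 fold change was that of Cars, with 42.9 and 44.8 CPM in shAsns-2 and 50.5 and 52.8 CPM in shRenilla. The groups did not overlap, and the value for Cars was -0.21 (SE 0.0895, edgeR unadjusted p = 0.0347, adjusted p = 0.472). Aars, the alanine enzyme, had 166 and 169 CPM in shAsns-2 against 171 and 163 CPM in shRenilla, so the groups overlapped. The last 1326 of the 5750 bases of its transcript are shared with Exosc6 on the same strand, so its level is uncertain. Iars, whose promoter holds the C/EBP-ATF letters, had 290 and 264 CPM against 277 and 296 CPM, again overlapping.

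Gars and Kars, which supply both compartments, were lower in shAsns-2 without passing the test. Gars stood at 205 and 216 CPM in shAsns-2 and at 218 and 275 CPM in shRenilla. The groups were just separate, and shRenilla B was the library that stood apart. The log2 fold change was -0.20 (SE 0.0952, edgeR adjusted p = 0.520), but -0.032 without shRenilla B and -0.35 without shRenilla A. Kars stood at 169 and 165 CPM against 178 and 194 CPM (log2 fold change -0.12, SE 0.0802, edgeR adjusted p = 0.637). Without shRenilla B the value for Kars was -0.069.

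The mitochondrial enzymes in shAsns-2 had values on both sides of shRenilla. Of 16, 0 rose, 0 fell and 16 were not called by edgeR, DESeq2 or limma-voom. At an unadjusted p under 0.05, edgeR gave 1 higher and 2 lower (5.59% and 4.05% of all genes). The median log2 fold change was -0.13, but it was -0.03 without shRenilla B and -0.06 without shAsns-2 B. Both shAsns-2 libraries lay below both controls at 7 genes and above them at 2, with the background shares given above, and at 4 and 3 genes in TMM-scaled CPM.

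Yars2, which charges mitochondrial tyrosine tRNA, was the lowest in shAsns-2, with 40.6 and 41.1 CPM against 49.6 and 55.8 CPM in shRenilla. The groups were separate by more than the spread within either, and the log2 fold change was -0.34 (SE 0.0933, edgeR unadjusted p = 0.00221, adjusted p = 0.233). The library labelled shAsns-1 was also below both controls, at 44.3 CPM. Cars2 (cysteine) had 10.98 and 10.2 CPM in shAsns-2 against 14.9 and 11.8 CPM (log2 fold change -0.32, SE 0.151; -0.12 without shRenilla A and -0.48 without shRenilla B). Fars2 had 4.39 and 4.32 CPM against 4.32 and 6.23 CPM, so that the groups overlapped (-0.24, SE 0.221; 0.029 without shRenilla B). Sars2, the serine enzyme, and Ears2 were the highest after Lars2, at log2 fold changes of 0.18 (SE 0.198) and 0.16 (SE 0.271). Ears2 turned to -0.10 without shAsns-2 A and -0.11 without shRenilla A. For both genes the SE exceeded the value, and Ears2 ran from 2.70 to 4.49 CPM over these 4 libraries with the groups overlapping.

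**Figure D2:**
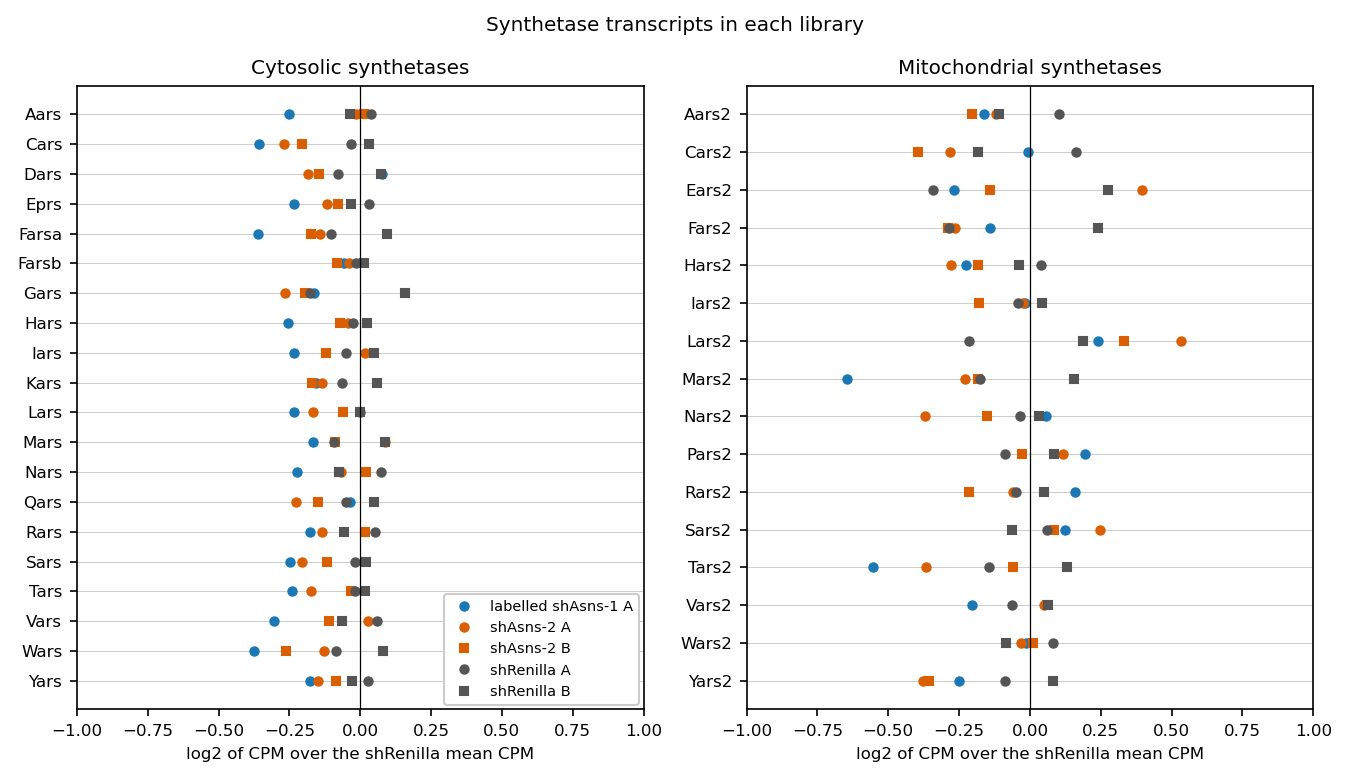
Each library's CPM of each synthetase transcript as a log2 ratio to the shRenilla mean; colours give the hairpin, circles library A and squares library B. Most cytosolic points of the library labelled shAsns-1 lie to the left of the other 4 libraries, with Dars to the right, while the mitochondrial points are mixed and wider.

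Nearly all cytosolic synthetases had lower values than shRenilla in the library labelled shAsns-1, the one with raised Asns, each by a small amount. The median log2 fold change was -0.24, against -0.01 over all genes tested, and 19 of 20 values were negative, where 51.3% of all genes were. Within shAsns-2 and within shRenilla the class median moved by -0.03 from library B to library A, which is an SD of 0.0192 for a single library. The library labelled shAsns-1 has no such pair. This library lay below both shRenilla libraries at 17 of 20 genes and above them at 1 (36.7% and 38.8% of all genes), and at 19 and 0 in TMM-scaled CPM (38.6% and 37.2%). It was the lowest of all 5 libraries at 15 genes and the highest at 1, against 24.4% and 30.9% of all genes. The summed cytosolic reads were 2973 CPM (95% exact Poisson interval 2940 to 3006, counting error only), below the 3178 to 3444 CPM of the other libraries.

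No cytosolic enzyme passed the test singly in that library. Of 20, 0 rose, 0 fell and 20 were not called in edgeR, where 4.37% of all genes were called (2.31% higher, 2.06% lower), and DESeq2 and limma-voom also called 0. At an unadjusted p under 0.05, 12 were lower and 0 higher, where 9.54% of all genes were lower and 10% higher. Wars, the tryptophan enzyme, which interferon-gamma also induces, was the lowest, at 68.9 CPM against 81.8 and 74.5 CPM in shAsns-2 and 84.3 and 94.4 CPM in shRenilla. It lay below all 4 other libraries (log2 fold change against shRenilla -0.39, SE 0.113, edgeR adjusted p = 0.0631). Farsa, the alpha subunit of the phenylalanine enzyme, and Cars followed, both at -0.37 (edgeR adjusted p = 0.0841 and 0.0790). Farsa stood at 46.4 CPM against 55.5 and 63.6 in shRenilla, while Farsb, its partner subunit, stood at 155 CPM against 160 and 164 (-0.07, SE 0.0974). Dars, the aspartate enzyme, was the exception in direction, with 131 CPM against 117 and 130 CPM in shRenilla, a log2 fold change of 0.07 (SE 0.102); in TMM-scaled CPM it did not lie above both controls.

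In this library genes of higher GC content had lower log2 fold changes (Spearman -0.323 across 8482 genes, which are not independent replicates). The cytosolic enzymes had a median GC content of 49.8%, near the 49.6% of all genes tested, but single enzymes ran from 41.2% (Dars) to 60.9% (Vars). With the GC trend removed, their median log2 fold change was -0.22.

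The mitochondrial enzymes in the library labelled shAsns-1 were spread more widely around the controls. Mars2, which charges mitochondrial methionine tRNA, fell, and it was the only member called in any of the 3 comparisons in edgeR (2.06% of all genes were called lower here). It had 11.7 CPM there, 15.7 and 16.1 CPM in shAsns-2, and 16.2 and 20.4 CPM in shRenilla, so the library lay below the 4 others. Mars2 had the lowest GC content of its class, 38.8%. With the GC trend removed its log2 fold change was -0.81, against -0.65 in the main fit. Its log2 fold change was -0.65 (SE 0.179, edgeR adjusted p = 0.0481); as a fold this is 0.636, the 95% interval being 0.489 to 0.827. The call was not made by DESeq2 (adjusted p = 0.174) or limma-voom (0.0761), and without shRenilla B it was lost (-0.49, adjusted p = 0.114). It was also lost in the fit to this library and shRenilla alone (edgeR adjusted p = 0.0689), and without shAsns-2 A (0.0701) or shAsns-2 B (0.0670). Tars2, the threonine enzyme, was the next lowest, at 16.5 CPM against 18.8 and 23.3 in shAsns-2 and 21.9 and 26.5 in shRenilla (-0.56, SE 0.170, edgeR adjusted p = 0.0705).

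Besides Mars2, 15 mitochondrial enzymes were not called and 0 rose, and 0 of 16 were called by DESeq2 or limma-voom. At an unadjusted p under 0.05, edgeR gave 3 lower and 0 higher (9.54% and 10% of all genes). The median was -0.09, with 11 of 16 values negative (51.3% of all genes); it was -0.059 without shRenilla A and -0.054 without shRenilla B. Lars2, Pars2 (proline) and Rars2 (arginine) were the highest, with log2 fold changes of 0.23 (SE 0.132), 0.19 (SE 0.203) and 0.15 (SE 0.146). Pars2 had 9.08 CPM in this library, 8.59 and 7.78 in shAsns-2 and 7.46 and 8.40 in shRenilla. Rars2 had 21.7 CPM, against 18.6 and 16.7 in shAsns-2 and 18.7 and 20.1 in shRenilla. Both were highest in the library labelled shAsns-1, and neither was called. Without shRenilla A the value for Pars2 was 0.11.

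Set side by side, the medians of the cytosolic and the mitochondrial class were -0.08 and -0.13 in shAsns-2, against -0.24 and -0.09 in the library labelled shAsns-1. Without Lars2 the mitochondrial medians were -0.14 and -0.14; they became -0.041 in shAsns-2 without shRenilla B and -0.063 in the library labelled shAsns-1 without shRenilla A. In the library labelled shAsns-1 the cytosolic enzyme had the lower log2 fold change in 12 of the 16 pairings by amino acid, and in shAsns-2 in 6. Both comparisons use the same shRenilla libraries. Leaving out Lars2, the mitochondrial enzymes' share of synthetase reads was 9.81% for the library labelled shAsns-1 (95% exact binomial interval 9.50 to 10.1). This share was 8.97% and 8.77% in shAsns-2 and 9.10% and 9.43% in shRenilla. The library labelled shAsns-1 had the highest share, and the intervals for it and for shRenilla B (9.19 to 9.68) overlapped.

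**Figure D3:**
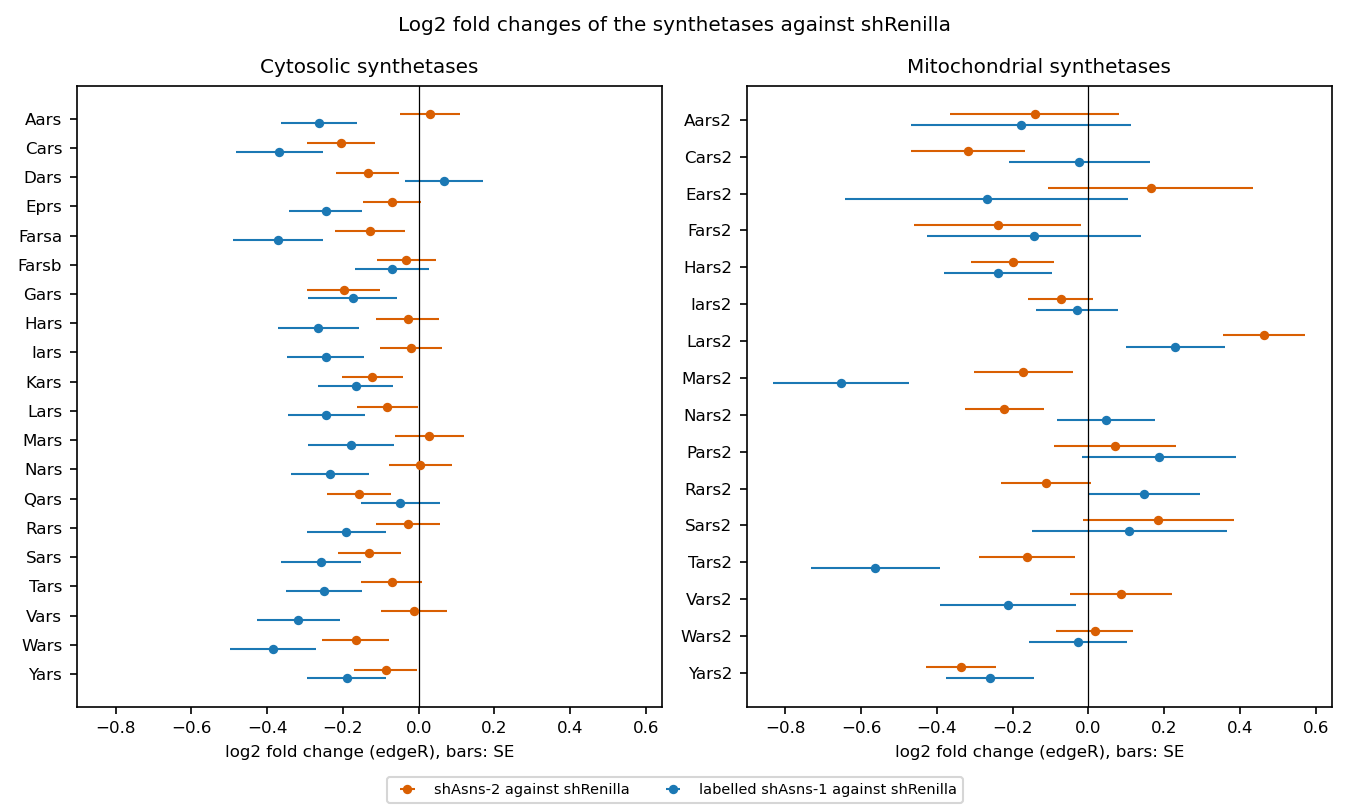
Log2 fold changes against shRenilla from edgeR with their SE for shAsns-2 and for the library labelled shAsns-1. The cytosolic values of that library centre on -0.24 and those of shAsns-2 on -0.08, while among mitochondrial enzymes Lars2 is highest in both and Mars2 is lowest at -0.65.

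The asparagine enzymes differed from each other in their order across the libraries. Nars (ENSMUSG00000024587) stood at 329 CPM in the library labelled shAsns-1, 366 and 389 CPM in shAsns-2, and 403 and 364 CPM in shRenilla. The shAsns-2 values lay between the control values. The library labelled shAsns-1 was the lowest, as at 15 of the 20 cytosolic enzymes, Nars among them. In shAsns-2 the log2 fold change of Nars was 0.00 (SE 0.0826, edgeR adjusted p = 0.989), a fold of 1.00 with a 95% interval of 0.889 to 1.13. In the library labelled shAsns-1 it was -0.24 (SE 0.103, edgeR unadjusted p = 0.0354, adjusted p = 0.213), or 0.850-fold (0.731 to 0.988), and -0.15 without shRenilla A.

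Nars2 (ENSMUSG00000018995, chr7:96951505-97064758 on the plus strand of GRCm38) stood at 35.7 CPM in the library labelled shAsns-1, 26.5 and 30.9 CPM in shAsns-2, and 33.5 and 35.1 CPM in shRenilla. Here shAsns-2 lay below the controls and the library labelled shAsns-1 above them. The log2 fold change was -0.22 in shAsns-2 (SE 0.104, edgeR unadjusted p = 0.0482, adjusted p = 0.516; 0.857-fold, 95% interval 0.736 to 0.999). Without shAsns-2 A it was -0.13, and without shAsns-2 B -0.34. In the library labelled shAsns-1 it was 0.05 (SE 0.129, edgeR adjusted p = 0.885). Of the Nars2 transcript, 284 bases lie opposite the antisense transcript C230038L03Rik, and the strand setting of the counting is not given in the sources used here.

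Of the reads of both genes, those of Nars2 were 9.81% for the library labelled shAsns-1 (95% exact binomial interval 8.87 to 10.8). In shAsns-2 it made up 6.77% (6.02 to 7.58) and 7.36% (6.71 to 8.06). In shRenilla the shares were 7.68% (7.07 to 8.33) and 8.81% (8.09 to 9.57). The shAsns-2 shares were the lowest and the share in the library labelled shAsns-1 the highest, but the intervals, which cover counting error only, overlap between neighbouring libraries. The mitochondrial share of all synthetase reads without Lars2 was likewise lowest in shAsns-2 and highest, at 9.81%, in the library labelled shAsns-1. Compared with the library labelled shAsns-1, shAsns-2 had a log2 fold change of 0.24 for Nars (SE 0.103, edgeR adjusted p = 0.250) and -0.27 for Nars2 (SE 0.132, edgeR adjusted p = 0.318). Neither was called.

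**Figure D4:**
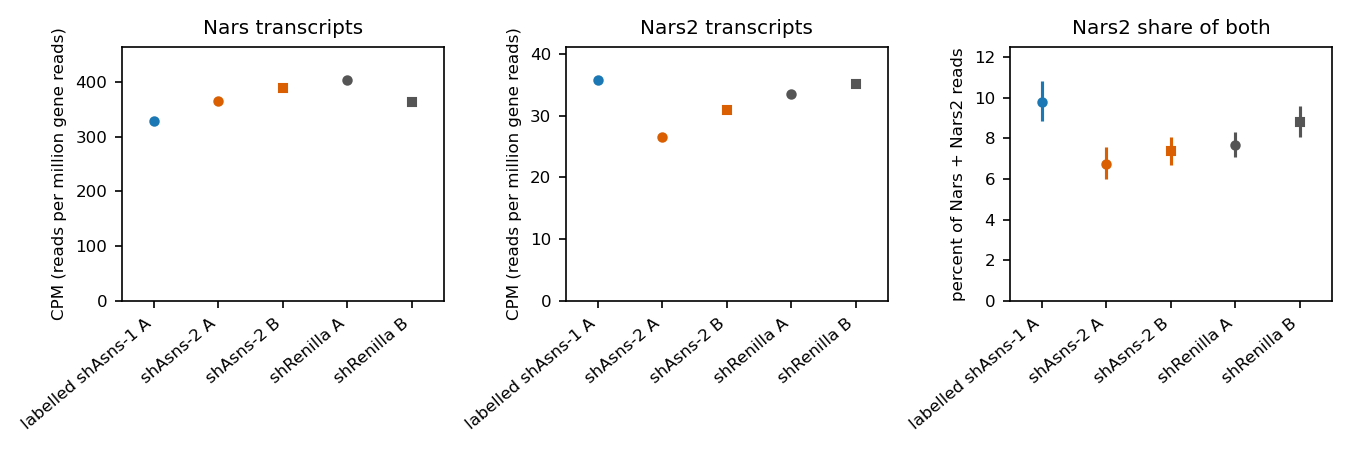
CPM of Nars and of Nars2 in each library, and the share of Nars2 in the reads of both with its 95% exact binomial interval (counting error only). Nars is lowest and the Nars2 share highest, at 9.81%, in the library labelled shAsns-1.

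Lars2, the mitochondrial leucine enzyme, had the highest log2 fold change of the 36 genes in both comparisons with shRenilla. It stood at 1225 CPM in the library labelled shAsns-1, 1500 and 1304 CPM in shAsns-2, and 893 and 1181 CPM in shRenilla. Both shAsns-2 libraries and the library labelled shAsns-1 were above both controls, but the controls differed from each other by more than shRenilla B differed from shAsns-2 B. The log2 fold change was 0.46 in shAsns-2 (SE 0.108; 1.38-fold, 95% interval 1.18 to 1.62; edgeR unadjusted p = 0.000516, adjusted p = 0.159) and 0.23 in the library labelled shAsns-1 (SE 0.132, edgeR adjusted p = 0.357). These values rest on which control is used: shAsns-2 had 0.28 without shRenilla A and 0.67 without shRenilla B. The library labelled shAsns-1 had 0.050 without shRenilla A and 0.44 without shRenilla B, the latter called (edgeR adjusted p = 0.0310). Lars2 took 72.5 to 82.7% of all mitochondrial synthetase reads, and 9.95 to 16.5 times the CPM of the next mitochondrial enzyme.

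Rn45s, the ribosomal RNA precursor, was also higher in shAsns-2, at 28889 and 27648 CPM against 20537 and 24239 CPM in shRenilla (log2 fold change 0.37, SE 0.0908, edgeR adjusted p = 0.192), and stood at 19900 CPM in the library labelled shAsns-1. Per 100 Rn45s reads there were 5.19 and 4.72 Lars2 reads in shAsns-2, 4.35 and 4.87 in shRenilla and 6.16 in the library labelled shAsns-1. In GENCODE's transcripts, 72 bases near the 3′ end of Lars2 (bases 3278 to 3349 of 3894) were 98.6% identical to the antisense transcript Gm15564. Its level is therefore uncertain, and the part of ribosomal RNA or of reads from similar sequence in it was not tested. Without Lars2, mitochondrial synthetases summed to 323 CPM in the library labelled shAsns-1, 313 and 310 CPM in shAsns-2, and 339 and 359 CPM in shRenilla, so these 3 libraries lay below both controls. With Lars2 the order was the opposite, at 1549, 1813, 1615, 1232 and 1540 CPM in the same order.

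**Figure D5:**
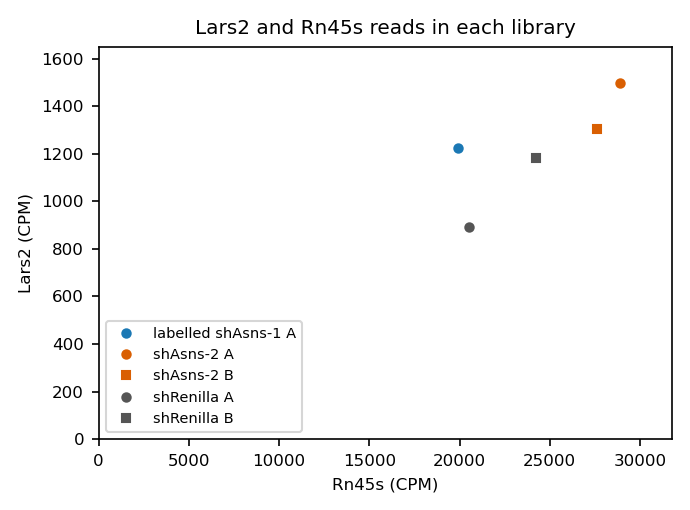
Lars2 against Rn45s in CPM, 1 point for each library. The shAsns-2 libraries are highest on both axes, and the library labelled shAsns-1 has more Lars2 (1225 CPM) than shRenilla at the lowest Rn45s (19900 CPM).

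The 20 cytosolic enzymes were also described by their known groups, between which no difference was tested. The 8 enzymes of the multi-tRNA synthetase complex, a cytosolic assembly (Eprs, Iars, Lars, Mars, Qars, Rars, Kars and Dars), had a median log2 fold change of -0.08 in shAsns-2 and -0.19 in the library labelled shAsns-1. The 12 cytosolic enzymes outside it had -0.08 and -0.26. The 12 enzymes commonly listed as ATF4 targets had -0.08 and -0.25, and the other 8 had -0.08 and -0.18. By the fold of the catalytic domain, the 9 class I enzymes had -0.08 and -0.24 and the 10 class II enzymes -0.10 and -0.24, leaving aside Eprs, which holds a domain of each class. Of these groups 0 members were called in either comparison. Sequence shared with other genes limits the counting of 12 of the 36 genes, among them Aars, Iars, Iars2 and Farsb. Iars2 shares 2034 bases with Rab3gap2 on the opposite strand. Farsb overlaps Sgpp2 on the opposite strand, the transcripts of Hars and Hars2 overlap by 195 bases on opposite strands, and Iars shares 1656 bases at 96.0% identity with the pseudogene Gm4849.

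Eprs, the largest of the complex enzymes by reads, shows the size of these differences, with 442 CPM in the library labelled shAsns-1, 479 and 491 CPM in shAsns-2, and 531 and 507 CPM in shRenilla. The library labelled shAsns-1 was lowest, and the shAsns-2 and shRenilla libraries did not overlap. The log2 fold change was -0.07 in shAsns-2 (SE 0.0777, edgeR adjusted p = 0.809) and -0.25 in the library labelled shAsns-1 (SE 0.0965, edgeR adjusted p = 0.165). The scaffold proteins of the complex are Aimp1, Aimp2 and Eef1e1. Eef1e1 had the lowest value of them in shAsns-2, with 35.9 and 39.96 CPM against 43.3 and 56.4 CPM in shRenilla (-0.36, SE 0.114, edgeR adjusted p = 0.321), while it stood at 49.3 CPM in the library labelled shAsns-1 (-0.03). Aimp2 had -0.06 and -0.26, and Aimp1 -0.01 and -0.15, in shAsns-2 and the library labelled shAsns-1.

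Other genes of tRNA charging and delivery were not called in either comparison. The 9 further charging genes, which include Qrsl1, a subunit of the enzyme that makes mitochondrial glutaminyl-tRNA, had medians of -0.17 in shAsns-2 and 0.00 in the library labelled shAsns-1. The 6 proofreading and recycling genes had -0.11 and -0.07. Cytosolic elongation factors had -0.09 and -0.14 over 5 genes, and mitochondrial ones -0.10 and -0.21 over 4. At an unadjusted p under 0.05, edgeR gave 1 charging gene, 0 proofreading genes, 1 cytosolic factor and 0 mitochondrial factors lower in shAsns-2 and 0, 0, 1 and 0 in the library labelled shAsns-1, with 0 higher. Of all genes tested, 4.05% were lower and 5.59% higher in shAsns-2, and 9.54% and 10% in the library labelled shAsns-1. DESeq2 and limma-voom called 0 of these charging and delivery genes.

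The 16 reference genes of the ATF4 response lay mostly above shRenilla in shAsns-2, without passing the test. Their median log2 fold change was 0.12 there, with 4 of 16 values negative, 0 called by edgeR, DESeq2 or limma-voom, and 2 higher and 0 lower at an unadjusted p under 0.05 (all genes: 50.3% negative, 5.59% higher and 4.05% lower). Atf4 itself had 235 and 238 CPM in shAsns-2, against 215 and 225 CPM in shRenilla and 221 CPM in the library labelled shAsns-1 (log2 fold change 0.13, SE 0.0774, edgeR adjusted p = 0.608 in shAsns-2). For the library labelled shAsns-1 the median was -0.16 with 11 of 16 negative (51.3% of all genes). There Slc3a2, the heavy chain of amino acid transporters, fell (-0.43, SE 0.110, edgeR adjusted p = 0.0336; 2.06% of all genes were called lower), 0 rose and 15 were not called, while DESeq2 called 0 and limma-voom 1. Vldlr, which is on this list and has its highest log2 fold changes, had only 2 to 10 reads in a library. The 2 genes higher in shAsns-2 were Chac1 (0.64, SE 0.119, edgeR adjusted p = 0.0642) and Ddit4 (0.69, SE 0.131, edgeR adjusted p = 0.0674). Chac1 had 26.1 and 22.8 CPM in shAsns-2, 15.4 and 16.6 CPM in shRenilla and 13.8 CPM in the library labelled shAsns-1. From that library to shAsns-2 its log2 fold change was 0.86. The list of 12 cytosolic enzymes commonly listed as ATF4 targets had 9 of 12 negative values in shAsns-2 and 12 of 12 in the library labelled shAsns-1. The difference between these lists was not tested.

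Between the hairpins, cytosolic synthetases were higher in shAsns-2 than in the library labelled shAsns-1, the median log2 fold change being 0.17 and 17 of 20 values positive, and 3 of 20 negative (49.5% of all genes, whose median was 0.00). For the mitochondrial enzymes the median was 0.04, but -0.036 with the GC trend removed and -0.0051 without shAsns-2 A. Of the 36 genes, 0 were called by edgeR (2.14% of all genes tested; 1.33% higher and 0.811% lower), DESeq2 or limma-voom. At an unadjusted p under 0.05, edgeR gave 7 higher and 0 lower (8.87% and 7.89% of all genes). Vars, the valine enzyme, had the largest cytosolic difference, with 121 and 110 CPM in shAsns-2, 96.0 CPM in the library labelled shAsns-1, and 124 and 113 CPM in shRenilla (0.30, SE 0.111, edgeR adjusted p = 0.169). Aars followed at 0.29 (SE 0.100, edgeR adjusted p = 0.148), with 140 CPM in the library labelled shAsns-1 below the other 4. In this comparison log2 fold changes rose with GC content (Spearman 0.40 across 8482 genes), and GC was 60.9% in Vars and 56.4% in Aars. With the GC trend removed, the cytosolic median was 0.15. With 1 library on that side, hairpin and library cannot be told apart.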

How the data were processed

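Per the labels' protocols, 4T1 RNA was isolated in Trizol and turned into libraries using the Nugen Ovation RNA-Seq V2 kit. The submitters' processing notes name Bowtie2, HTSeq and mm10; no versions, annotation or strand setting appear in the sources used here. The deposited table held whole-number read counts per gene symbol for 6 libraries, made by the authors. Since shAsns-1 B was 0 throughout, the planned fit to 6 libraries was made on 5, leaving 2 residual degrees of freedom, and the lone library labelled shAsns-1 was taken to have the spread of the others. Rows that are tallies stayed out of the totals: 36.1 to 38.3% of reads fell in no feature, 17.9 to 23.2% were unaligned and 0.584 to 0.626% were ambiguous. The tally of reads with several alignments was 0, so levels of similar genes are uncertain.

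The model was edgeR 4.0.16 (R 4.3.3): filterByExpr by group (12457 genes), TMM factors, and a quasi-likelihood fit over all groups with no replicate block. Benjamini-Hochberg adjustment covered all genes tested, and calls needed an adjusted p under 0.05. Alternatives were RLE factors, DESeq2 1.42.0, limma-voom (limma 3.58.1), no filter, a replicate block, only the compared groups, a loess of log2 CPM on transcript GC removed, and leaving out each library. The steps were tested on simulated counts. Exon lengths and GC came from GENCODE vM21 (GRCm38, the mm10 build), with exons of all transcripts merged. Similar stretches of at least 70 bases and 95% identity were found with BLAST 2.17.0. The 36 genes and all lists were chosen with earlier results of these data known. Named in depth were Nars, Nars2, Gars, Kars, called members and the 3 highest and 3 lowest members of each comparison with shRenilla; other members are named as examples. Some items are not reported here.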

Additional observations from a re-analysis of the deposited data

How the results depend on the processing

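With 2 libraries at most for a hairpin, calls on single genes moved with the settings, and so did calls over all genes. In shAsns-2 these were 8 in the main fit, 114 with no filter and 178 with a replicate block. In the library labelled shAsns-1 they also rose with no filter or a block, and fell with DESeq2, limma-voom, the GC trend removed or only the groups compared. Between the hairpins they rose with no filter, with a block and with only the groups compared. They fell there with DESeq2, limma-voom, the GC trend removed or shAsns-2 A left out. The 1 member called in the library labelled shAsns-1 against shRenilla became 0 with DESeq2, limma-voom or only the groups compared, 4 with no filter on low counts (Farsa, Wars, Mars2 and Tars2) and 0 to 2 when 1 library was left out (Vars and Lars2 without shRenilla B). The 0 members called in shAsns-2 became 1 with no filter (Lars2). Between the hairpins 0 became 1 with only the groups compared (Aars). The letters A and B are not said to mark a shared batch, and the A minus B differences of shAsns-2 and shRenilla correlated at 0.0268 over 8952 genes. With a replicate block the calls were 2 in shAsns-2 (Lars2 and Yars2), 3 in the library labelled shAsns-1 (Vars, Wars and Mars2) and 1 between the hairpins (Vars), Asns in shAsns-2 passed at -0.33 (edgeR adjusted p = 0.0388), and Fars2 of the library labelled shAsns-1 turned to 0.000934.

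The cytosolic median in the library labelled shAsns-1 was -0.26 with no filter and -0.22 with the GC trend removed. The GC setting gave -0.084 for mitochondrial enzymes without Lars2 there, and turned the mitochondrial medians between the hairpins to -0.036, or -0.047 without Lars2. Leaving out 1 library gave these ranges of medians in shAsns-2: cytosolic -0.10 to -0.067, mitochondrial -0.14 to -0.034, and -0.15 to -0.041 without Lars2. Against shRenilla, the library labelled shAsns-1 had a mitochondrial range without Lars2 that was -0.14 to -0.063. Between the hairpins the cytosolic median ran from 0.12 to 0.18, the mitochondrial one from -0.0051 to 0.037, and from -0.0078 to 0.035 without Lars2. In shAsns-2 Nars ran from -0.075 to 0.091, Fars2 from -0.48 to 0.029, Ears2 from -0.11 to 0.48 and Pars2 from -0.0073 to 0.15. With the library labelled shAsns-1, Cars2 ran from -0.19 to 0.17, Fars2 from -0.38 to 0.13 and Ears2 from -0.55 to 0.051. The cause was not tested.

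Without Rn45s in the total, cytosolic sums were 3495 CPM in shRenilla, 3295 in shAsns-2 and 3033 in the library labelled shAsns-1. TMM scaling gave 3246 in shAsns-2 and 2929 in the library labelled shAsns-1. Mitochondrial reads came to 1580 CPM in the library labelled shAsns-1 without Rn45s, and without Lars2 to 321 (without Rn45s) or 316 (TMM) in shAsns-2. By the longest transcript, Nars stood at 140 RPKM (139.7) and Nars2 at 9.09. Low counts limit Ears2, Aars2, Fars2 and Sars2, which had under 7 CPM in every library.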
